A study of Mus musculus with 48 samples.

Results

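The transcripts described here are those of 38 genes that hepatocytes express, read in macrophages sorted from mouse liver during injury and repair. The genes were set as a list of symbols, with earlier results of these data known. All 38 were found among the 54735 genes of the count files. RNA sequencing libraries were made from Kupffer cells (KCs), macrophages that reside in the liver, taken from male C57BL/6 mice. KCs came at 6, 12, 24, 36, 48, 72, 96, 120 and 168 h after acetaminophen (APAP), with 4 libraries at each time, and at 0 and 24 h after saline (PBS), with 2 libraries at each time. At 36 and 48 h after APAP a second population labelled LAM-like KCs, after lipid-associated macrophages, was sorted as well, with 4 libraries at each time. The labels used here do not give the gate that separated it. The 48 libraries thus form 13 groups, with 15885336 to 26058698 counted reads each. The labels do not say that libraries come from separate animals, so p-values measure the spread between these samples.

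Hepatocytes make most of the proteins of blood plasma, among them albumin, transferrin, the fibrinogen chains and the apolipoproteins, and hold the enzymes of the urea cycle and the cytochromes P450 that metabolise drugs. APAP is turned by such cytochromes, Cyp2e1 foremost, into a reactive product that kills hepatocytes around the central vein. Surviving hepatocytes lower their metabolic enzymes and raise acute phase proteins such as haptoglobin, haemopexin and fibrinogen. KCs line the sinusoids beside hepatocytes and take up dead cells. Reads of hepatocyte genes in a sorted macrophage library can come from hepatocyte material inside the macrophage, from attached or co-sorted hepatocytes, or from free RNA, and these sources cannot be told apart in the present data. Nor can fewer cells carrying such RNA and less RNA per cell.

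The libraries had the character of KCs. A list of 16 KC genes summed to 26128 to 69452 CPM (read counts relative to library sizes scaled by TMM), and all 16 had reads in each group. Replicate 2 of the KCs at 72 h stood apart, with a summed level of the 38 hepatocyte genes of 34505 CPM, the highest of the 48 libraries. For the 38, the counts of falls up to 48 h and the median change at 72 h are given with and without it. Numbers in the file headers divide the libraries into set 1 (numbers up to 25, 25 libraries) and set 2 (23 libraries). What these numbers record is not stated. Both libraries of PBS 24 h belong to set 1 and both of PBS 0 h to set 2, which leaves set and time impossible to separate there: they cannot be told apart.

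Promoters of 6 of the 38 genes are shown because the genes moved together in amount between libraries while Fgb and Cyp2e1 moved apart in make-up. They are the 250 bases before the RefSeq start on GRCm38.p6, written 5′ to 3′ on the gene's strand: Alb at chr5:90460620-90460869 (plus strand), Fgb at chr3:83049864-83050113 (minus strand), Serpina1a at chr12:103863620-103863869 (minus strand), Serpina1b at chr12:103738190-103738439 (minus strand), Fabp1 at chr6:71199629-71199878 (plus strand) and Cyp2e1 at chr7:140763569-140763818 (plus strand). Capitals mark GTTAAT, a core of the sites of HNF1, and TTGCNNAA, a motif of the C/EBP type, each searched on both strands.
Alb: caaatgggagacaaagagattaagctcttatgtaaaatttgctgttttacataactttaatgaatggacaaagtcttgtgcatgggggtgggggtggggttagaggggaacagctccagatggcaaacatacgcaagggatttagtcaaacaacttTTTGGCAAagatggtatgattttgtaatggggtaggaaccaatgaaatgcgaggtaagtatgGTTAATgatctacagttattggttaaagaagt
Fgb: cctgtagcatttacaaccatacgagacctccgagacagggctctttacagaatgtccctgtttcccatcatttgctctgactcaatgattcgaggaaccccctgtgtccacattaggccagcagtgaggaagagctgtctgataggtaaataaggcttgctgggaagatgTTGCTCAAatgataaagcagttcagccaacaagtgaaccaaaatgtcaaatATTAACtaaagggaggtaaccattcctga
Serpina1a: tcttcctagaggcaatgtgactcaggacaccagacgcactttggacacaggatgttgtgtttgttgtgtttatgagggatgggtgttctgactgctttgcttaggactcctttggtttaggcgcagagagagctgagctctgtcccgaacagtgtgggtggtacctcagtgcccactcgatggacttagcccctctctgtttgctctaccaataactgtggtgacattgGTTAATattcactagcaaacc
Serpina1b: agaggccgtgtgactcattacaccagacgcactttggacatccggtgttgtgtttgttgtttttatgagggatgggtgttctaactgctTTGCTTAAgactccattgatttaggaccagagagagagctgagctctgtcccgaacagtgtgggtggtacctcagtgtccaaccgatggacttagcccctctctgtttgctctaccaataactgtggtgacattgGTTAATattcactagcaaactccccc
Fabp1: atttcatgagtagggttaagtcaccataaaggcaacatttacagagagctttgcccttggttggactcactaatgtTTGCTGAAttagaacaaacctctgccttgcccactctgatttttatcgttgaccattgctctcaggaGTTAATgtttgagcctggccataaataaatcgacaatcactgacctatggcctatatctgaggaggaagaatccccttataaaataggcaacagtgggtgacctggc
Cyp2e1: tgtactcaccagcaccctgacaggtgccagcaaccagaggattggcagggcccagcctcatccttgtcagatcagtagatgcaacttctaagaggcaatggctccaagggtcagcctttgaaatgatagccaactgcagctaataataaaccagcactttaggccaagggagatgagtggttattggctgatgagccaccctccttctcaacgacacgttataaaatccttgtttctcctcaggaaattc
Promoters were found in the RefSeq table for 30 of the 38 genes. GTTAAT stood in 10 of these 30 and in 6.43% of all 32851 promoters of this length. It began 32 bases before the start in Alb, 29 in Fgb, 21 in Serpina1a, 26 in Serpina1b and 107 in Fabp1. TTGCNNAA stood in 9 of the 30 and in 9.56% of all promoters, and the window of Cyp2e1 held neither motif. CTGGGAA, a core of acute phase elements, stood in 4 of the 30 and in 9.10% of all, and TATAAA in 8 of the 30 and in 12.4% of all. A match of letters is a description and shows no binding.

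Hepatocyte transcripts were a small part of the reads of each KC library. Among the 9 times after APAP the group mean of KCs was lowest at 24 h, although replicate 4 at 12 h and replicate 3 at 48 h were lower than any library of 24 h. All 38 genes had at least 2 reads in each of the 48 libraries, and their reads summed to between 12936 and 656570 in a library. In PBS mice they made up 0.35 and 0.497% of counted reads at 0 h and 0.689 and 0.50% at 24 h. After APAP the share was 0.183, 0.27, 0.272 and 0.251% at 6 h, 0.246, 0.179, 0.467 and 0.145% at 12 h and 0.165, 0.152, 0.227 and 0.177% at 24 h. All libraries of 6 and 24 h thus lay below all 4 PBS libraries, while replicate 3 at 12 h lay among them. The share was 0.322, 0.307, 0.182 and 0.194% at 36 h, 0.454, 0.302, 0.141 and 0.375% at 48 h and 0.999, 3.52, 0.217 and 0.215% at 72 h. The 36 h libraries again did not reach PBS, those of 48 h overlapped it, and those of 72 h fell on both sides of it. Later the share was 0.921, 0.47, 0.427 and 0.427% at 96 h, 0.559, 0.511, 0.363 and 0.367% at 120 h and 0.531, 0.311, 0.309 and 0.287% at 168 h, overlapping PBS at each time.

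On scaled CPM the mean sum was 4951 ± 1392 (SD, n = 4) CPM in PBS and 1828 ± 287 (SD, n = 4) CPM at 24 h, 0.369 of the PBS mean and the lowest of the 9 times. The ratio to PBS was 0.546 at 6 h, 0.577 at 12 h, 0.476 at 36 h and 0.599 at 48 h, and then 1.15 at 96 h, 0.936 at 120 h and 0.727 at 168 h. From 96 h on the libraries overlapped those of PBS. Summed levels of markers of other cells at 24 h are given beside this. A list of 15 sinusoidal endothelial genes summed to 219 to 384 CPM at 24 h against 379.8 to 588 CPM in PBS, 14 stellate cell genes to 152 to 189 against 237 to 340.2 CPM, and 8 erythroid genes to 3.59 to 8.21 against 18.2 to 28.5 CPM, with Slc4a1 and Epb42 at 0 reads at 24 h. In these lists 1 of 15, 2 of 14 and 4 of 6 tested genes fell, where 10.9% of all tested genes did. The endothelial ranges overlapped, and the stellate cell and erythroid ranges did not. The 13 neutrophil genes summed to 57.3 to 68.1 CPM at 24 h against 83 to 129 CPM in PBS, without overlap, and of 7 tested 2 fell and 1 rose. Of these 13 genes, Ly6g, Camp, Ngp, Ltf, Mpo and Cxcr2 had 0 reads in both. Of 10 B cell genes 8 stood higher at 24 h, 2 rose and 1 fell (16% of all tested genes rose). Their median log2 fold change was 1.07, while their sum was 17.7 to 32.1 against 31.8 to 59.7 CPM in PBS. A list of 8 cholangiocyte genes summed to 4.1 to 7.43 against 2.26 to 5.97 CPM, and 10 T and NK cell genes to 0.507 to 3.43 against 0.72 to 2.15 CPM. For these lists the ranges overlapped, and no tested cholangiocyte or T and NK cell gene was called. The part of these lists in the result was not tested. The 16 KC genes summed to 42871 to 52326 CPM at 24 h against 52984 to 59846 CPM.

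**Figure D1:**
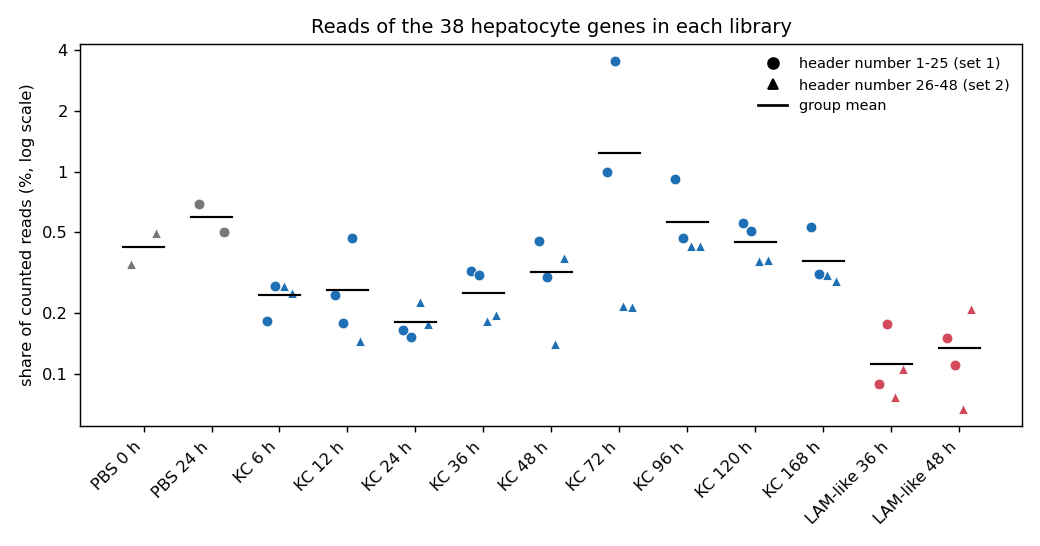
Share of counted reads (percent, log axis) from the 38 hepatocyte genes in each of the 48 libraries, by group; circles are set 1, triangles set 2, bars group means. KCs at 24 h lie between 0.152 and 0.227%, below all 4 PBS libraries, and the 4 libraries at 72 h spread from 0.215 to 3.52%.

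To ask which of the genes changed, each time was compared with the mean of both PBS groups in an edgeR fit over all 17080 tested genes, with an adjusted p below 0.05 as the threshold. No gene of the 38 rose at any time, while 9.72, 12.5, 16, 15.8 and 2.46% of all tested genes rose at 6, 12, 24, 36 and 48 h. The number that fell was 3 at 6 h (5.42% of all tested genes fell), 8 at 12 h (8.09%), 25 at 24 h (10.9%), 12 at 36 h (10.5%) and 4 at 48 h (1.21%). The median log2 fold change of the 38 was -0.98, -0.96, -1.67, -1.10 and -1.0 at these times, where the median of all tested genes lay between 0.016 and 0.045. At 72 h all 38 stood above PBS and at 96, 120 and 168 h 25, 13 and 1 did, with none called (3 later times: 0.158%, 0.123% and 0.0351% of genes called in either direction). At 96, 120 and 168 h no member had an unadjusted p below 0.05 either, and DESeq2 called none. The times share their PBS libraries and are not independent of each other. Within set 1, with PBS 24 h as the only control, 12, 11, 30, 9 and 7 fell in the same order of times (9.15, 9.03, 13.3, 7.29 and 2.83% of all genes). Within set 2 the counts were 0, 0, 8, 10 and 0 (2.74, 1.48, 4.64, 8.66 and 0.117%). Fitting no other groups than those compared gave 21, 15, 33, 30 and 5 falls (3.83, 11.5, 16, 15.5 and 2.53%). Without replicate 2 at 72 h, which enters the shared estimate of spread, 7, 13, 31, 17 and 7 fell (7.06, 10.1, 12.9, 11.5 and 1.97%). Other single libraries moved these counts too. At 6 h 1 fell without replicate 1 of that time. At 12 h 5 fell without replicate 2 or 4 of that time or replicate 2 of PBS 0 h, 4 without replicate 1 of PBS 24 h, and 13 without replicate 3 of that time. At 36 h 6 fell without replicate 1 of PBS 24 h and 7 without replicate 3 or 4 of that time or replicate 2 of PBS 0 h. At 48 h 1 fell without replicate 1, 2 or 3 of that time, either PBS 24 h library or replicate 2 of PBS 0 h, and 7 without replicate 4 of that time. With 1 library left out, the share of all genes that fell was 2.84 to 7.06% at 6 h, 4.92 to 10.1% at 12 h, 7.46 to 11.5% at 36 h and 0.272 to 2.12% at 48 h. In all, 25 of the 38 fell at 1 or more times and 13 at none, these being Ahsg, Ambp, Apoa1, Arg1, Fga, Fgb, Fgg, Hp, Hpx, Itih4, Kng1, Pck1 and Vtn.

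**Figure D2:**
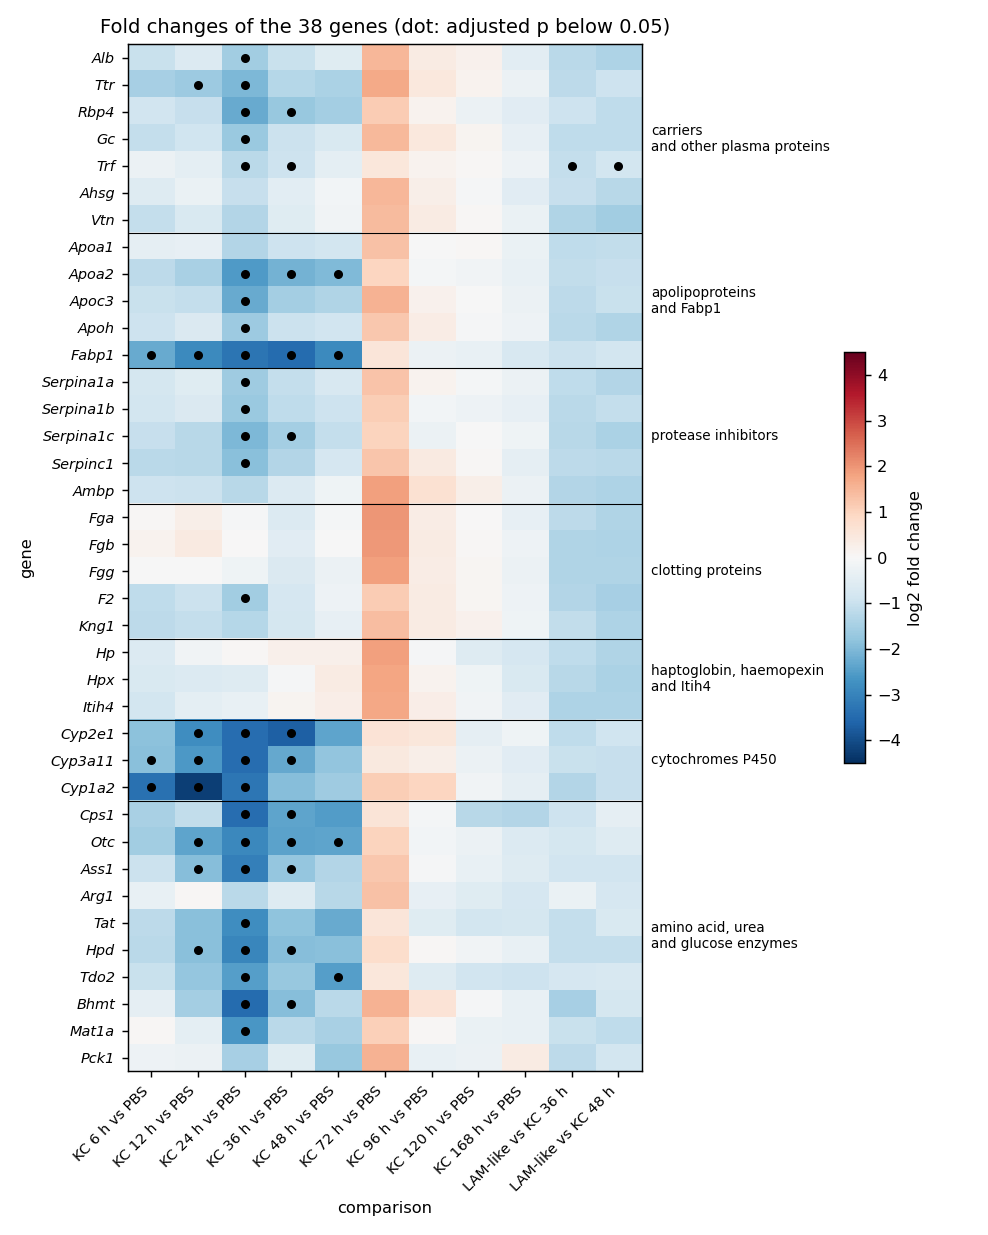
Log2 fold change (colour) of the 38 genes (rows, grouped by role) in 11 comparisons (columns); dots mark an edgeR adjusted p below 0.05. Falls at 24 h (25 dots) span most carriers, apolipoproteins with Fabp1, protease inhibitors, cytochromes and enzymes, and F2 of the clotting genes. Fibrinogen, haptoglobin, haemopexin and Itih4 have none.

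Alb (chromosome 5, 90460897 to 90476602, plus strand, mm10) encodes albumin, the main protein of plasma. It stood at 609.6 and 851 CPM in PBS at 0 h and 1258 and 1011 CPM at 24 h. After APAP it stood at 425, 563, 440.4 and 397 CPM at 6 h, 613, 430.3, 1059 and 291 at 12 h and 319, 217, 379.8 and 307 at 24 h. All 6 h and 24 h libraries lay below PBS, whereas at 12 h replicates 1 and 3 overlapped it. It then stood at 629.9, 561, 349 and 299 CPM at 36 h, 928, 592, 277 and 709 at 48 h and 2417, 7019.7, 525 and 382 at 72 h, and at 2143, 1081, 807 and 725 CPM at 96 h, 1519.7, 1403, 585 and 620.0 at 120 h and 1029, 646, 487 and 486 at 168 h. At 36 h replicate 1 lay just above the lowest PBS library. Replicates 3 and 4 (set 2) were the lower pair at 36, 72, 96, 120 and 168 h. Alb fell at 24 h only among the 9 times in this fit, by 1.57 ± 0.56 (log2 fold change ± SE, edgeR adjusted p = 0.0344). Its share of the 38-gene sum was 18.8 ± 1.53% (SD, n = 4) in PBS and 16.6 ± 1.96% (SD, n = 4) at 24 h.

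Among the other carriers, Ttr (transthyretin, a carrier of thyroid hormone), Rbp4 (the retinol carrier) and Gc (the vitamin D binding protein) fell at 24 h, by 2.03 (adjusted p = 0.00996), 2.27 (adjusted p = 0.00441) and 1.65 (adjusted p = 0.025) on the log2 scale. Ttr had fallen at 12 h, with -1.63 (adjusted p = 0.0451), and Rbp4 was still lower at 36 h, with -1.70 (adjusted p = 0.0293). Ahsg (fetuin A) and Vtn (vitronectin) did not pass the threshold, with -1.03 (adjusted p = 0.178) and -1.30 (adjusted p = 0.0714) at 24 h. 5 of the 7 carriers thus fell at 24 h and 2 of the 7 at 36 h.

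Trf (chromosome 9, 103204001 to 103230444, minus strand), which encodes transferrin, the iron carrier, is described by library. It stood at 147 and 158 CPM in PBS at 0 h and 163 and 154 at 24 h, and at 155, 132, 119 and 117 CPM at 6 h, 124, 115, 136 and 78.7 at 12 h and 59.1, 50.4, 86.1 and 74 at 24 h after APAP. The 4 libraries at 24 h were all below the lowest of PBS. It stood at 98.2, 93.9, 68.7 and 64.2 CPM at 36 h, 123, 102, 84.4 and 152 at 48 h and 203, 354, 176 and 156 at 72 h, then at 193, 168, 190.0 and 148 CPM at 96 h, 173, 177, 146 and 157 at 120 h and 153, 115, 143 and 117 at 168 h. The 36 h libraries also lay below PBS, and at 72 h replicates 1, 2 and 3 lay above all PBS libraries. The change was -1.21 ± 0.21 (log2 fold change ± SE, edgeR adjusted p = 4.27e-05) at 24 h and -0.94 ± 0.21 (log2 fold change ± SE, edgeR adjusted p = 0.00083) at 36 h. Macrophages that recycle iron can express Trf, and its reads are not split by source here.

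Of the apolipoproteins, Apoa2 (chromosome 1, 171225054 to 171226379, plus strand), a protein of high-density lipoprotein, stood at 147 and 223 CPM in PBS at 0 h and 258 and 174 at 24 h. It stood at 97.3, 75, 84.3 and 95.7 CPM at 6 h, 57.3, 54.1, 129 and 51.6 at 12 h, 24.8, 23.3, 58 and 29.8 at 24 h, 53.1, 54.6, 36.9 and 39.98 at 36 h and 49.8, 30.1, 24.2 and 99 at 48 h. From 6 to 48 h no library of these reached the lowest PBS library. At 72 h it stood at 359.9, 1072, 69.5 and 55 CPM, at 96 h at 257, 144, 162 and 183, at 120 h at 224, 191, 146 and 158 and at 168 h at 253, 109, 147 and 129 CPM. The fall was called at 24, 36 and 48 h, with -2.56 ± 0.60 (log2 fold change ± SE, edgeR adjusted p = 0.0014) at 24 h. Apoc3 (an inhibitor of triglyceride breakdown) and Apoh (beta-2 glycoprotein I) fell at 24 h by 2.28 (adjusted p = 0.00528) and 1.65 (adjusted p = 0.0294). Apoa1, the main protein of high-density lipoprotein, stood at -1.31 (adjusted p = 0.0933). Apoa1 and Apoc3 are neighbours on chromosome 9.

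Fabp1 (chromosome 6, 71199827 to 71205023, plus strand), the fatty acid binding protein of liver cytosol, was called at more times than any other of the 38, namely 5. It stood at 156 and 199.7 CPM in PBS at 0 h and 151 and 155 in PBS at 24 h, and at 20.6, 27.3, 44.6 and 45.8 CPM at 6 h, 12, 9.48, 31.9 and 13.6 at 24 h and 14.1, 19.2, 11.5 and 15.4 at 36 h. No library of these times overlapped PBS. The log2 fold change was -2.25 (adjusted p = 0.0153) at 6 h, -2.85 (adjusted p = 0.00192) at 12 h, -3.29 (adjusted p = 0.000359) at 24 h, -3.45 (adjusted p = 0.000195) at 36 h and -2.87 (adjusted p = 0.00915) at 48 h by edgeR. At 96 h it stood at 208, 88.5, 137 and 122 CPM, and at 168 h at 137, 65.1, 111 and 83.4 CPM.

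Of the 5 protease inhibitors, 4 fell at 24 h. The alpha-1 antitrypsin genes Serpina1a, Serpina1b and Serpina1c changed by -1.62 (adjusted p = 0.0271), -1.68 (adjusted p = 0.0171) and -2.04 (adjusted p = 0.00544), and Serpinc1, which encodes antithrombin, by -1.89 (adjusted p = 0.00958). The transcripts of the 3 Serpina1 genes are 87.7 to 96.8% identical, so counting could split their reads among them. Ambp, the precursor of alpha-1 microglobulin and bikunin, stood at -1.23 (adjusted p = 0.0797).

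Of the 5 clotting genes 1 fell at 24 h, namely F2, which encodes prothrombin, at -1.58 (adjusted p = 0.0251) on the log2 scale at 24 h. Fga, Fgb and Fgg, the 3 chains of fibrinogen, stood at -0.051 (adjusted p = 0.975), 0.017 (adjusted p = 1) and -0.19 (adjusted p = 0.844). Fga stood at 137 and 177 CPM in PBS at 0 h and 223 and 149.8 in PBS at 24 h and at 182, 170.3, 180.0 and 128 CPM at 24 h after APAP, within the PBS range but for replicate 4. Kng1, which encodes kininogen, missed the threshold at -1.28 (adjusted p = 0.0704), although its libraries at 24 h, at 39.97, 42.4, 65.6 and 44.9 CPM, all lay below those of PBS, at 82.5 and 106 CPM at 0 h and 181 and 110.0 CPM at 24 h. The 3 fibrinogen genes lie in a cluster on chromosome 3.

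Hp (chromosome 8, 109575128 to 109579172, minus strand) encodes haptoglobin, which binds free haemoglobin. It stood at 44.5 and 66.6 CPM in PBS at 0 h and 241 and 118 at 24 h, so the PBS groups did not overlap for this gene. It stood at 48, 61.9, 75.9 and 77.4 CPM at 6 h, 93.6, 62.7, 153 and 45.3 at 12 h, 104, 105, 102 and 98.6 at 24 h, 151, 138, 79.2 and 104 at 36 h and 195, 107, 49.7 and 114 at 48 h. All 20 of these libraries lie within the range of the 4 PBS libraries. It stood at 225, 1056, 28 and 115 CPM at 72 h, 139, 63, 75.4 and 104 at 96 h, 88.7, 77.6, 45.6 and 52.2 at 120 h and 71.4, 76.7, 52.3 and 38.9 at 168 h. Hp, Hpx (haemopexin, which binds free haem) and Itih4 (an acute phase protein) stood at 0.038 (adjusted p = 0.983), -0.59 (adjusted p = 0.446) and -0.34 (adjusted p = 0.701) at 24 h, and 0 of these 3 were called at any time.

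At 6 h the genes that fell were Fabp1 and the cytochromes Cyp1a2 and Cyp3a11, and all 3 cytochromes were lower at 12 and 24 h. Cyp2e1 (chromosome 7, 140763739 to 140774987, plus strand), the enzyme that activates APAP, stood at 98.3 and 122 CPM in PBS at 0 h and 182 and 63 at 24 h. It stood at 15.7, 36, 40.9 and 36.9 CPM at 6 h, 27.8, 11, 19.5 and 8.03 at 12 h, 9.77, 6.54, 19.7 and 6.44 at 24 h, 5.34, 12.2, 8.8 and 10.1 at 36 h and 26, 6.98, 8.5 and 46.8 at 48 h. None of these 20 libraries reached the lowest PBS library. It stood at 147, 522, 26.2 and 23.8 CPM at 72 h, 334, 96.9, 143 and 91.3 at 96 h, 102, 55.4, 135 and 60.04 at 120 h and 191, 36.8, 82 and 93.5 at 168 h. The change was -2.81 ± 0.78 (log2 fold change ± SE, edgeR adjusted p = 0.00803) at 12 h, -3.44 ± 0.80 (log2 fold change ± SE, edgeR adjusted p = 0.00127) at 24 h and -3.68 ± 0.81 (log2 fold change ± SE, edgeR adjusted p = 0.000654) at 36 h. Cyp1a2, another activator of APAP, changed by -3.37 (adjusted p = 0.00377) at 6 h, -4.22 (adjusted p = 0.000462) at 12 h and -3.26 (adjusted p = 0.00232) at 24 h. Its libraries at 6 h stood at 0.132, 1.49, 5.09 and 3.47 CPM against 17.4 and 25.3 in PBS at 0 h and 50.1 and 17.6 in PBS at 24 h. Cyp3a11, a broad drug-metabolising enzyme, changed by -1.89 (adjusted p = 0.0412) at 6 h, -3.41 (adjusted p = 0.000252) at 24 h and -2.30 (adjusted p = 0.00741) at 36 h.

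Of the 10 enzymes of amino acid, urea and glucose metabolism, 8 fell at 24 h. Cps1 (chromosome 1, 67123026 to 67231259, plus strand), the entry enzyme of the urea cycle, stood at 45.7 and 95.6 CPM in PBS at 0 h and 211 and 107 in PBS at 24 h. It stood at 33.4, 46.2, 40.6 and 35.4 CPM at 6 h, 51.2, 22.3, 109 and 15.3 at 12 h, 7.69, 5.13, 16.6 and 9.58 at 24 h, 29.8, 31.3, 7.98 and 13.5 at 36 h and 15.9, 8.64, 3.87 and 44.9 at 48 h. The 24, 36 and 48 h libraries all lay below PBS. It stood at 107, 455, 40.5 and 39.2 CPM at 72 h, 147, 72.5, 55 and 120.1 at 96 h, 36, 31, 54.6 and 56.8 at 120 h and 70.1, 32.7, 37.5 and 29 at 168 h. The change was -3.44 ± 0.81 (log2 fold change ± SE, edgeR adjusted p = 0.00146) at 24 h.

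Ass1, the urea cycle's argininosuccinate synthase, stood at 14.4 and 28.5 CPM in PBS at 0 h and 38.2 and 26.4 in PBS at 24 h. It stood at 19.1, 13.5, 12.9 and 8.57 CPM at 6 h, 8.56, 5.29, 10.00 and 4.41 at 12 h, 1.35, 1.83, 5.78 and 3.45 at 24 h, 11.1, 8.13, 4.91 and 7.14 at 36 h and 12.5, 5.76, 5.66 and 17.8 at 48 h. The libraries of 12, 24 and 36 h all lay below PBS. It stood at 48.8, 174, 10.4 and 13.3 CPM at 72 h, 34.9, 18.6, 22.2 and 26.1 at 96 h, 24.3, 22.5, 13.1 and 24.4 at 120 h and 25.6, 11.3, 19.8 and 14.1 at 168 h, and the change at 24 h was -3.07 ± 0.63 (log2 fold change ± SE, edgeR adjusted p = 0.000301). Arg1, arginase of the urea cycle and also a gene that macrophages can express, stood at 21.6 and 38.8 CPM in PBS at 0 h and 54.4 and 46.8 in PBS at 24 h. After APAP it stood at 32.8, 39.5, 27.7 and 25.3 at 6 h, 36.7, 36.4, 68.8 and 21.9 at 12 h and 19.4, 20.6, 15 and 11.7 at 24 h. It stood at 26.6, 27, 15.5 and 36.4 CPM at 36 h, 16.6, 12.7, 7.86 and 29.1 at 48 h, 61.5, 292, 22.4 and 18.9 at 72 h, 34, 21.7, 29.7 and 34.7 at 96 h, 26.6, 26.1, 17.1 and 38.4 at 120 h and 26.4, 18, 22.9 and 24.4 at 168 h. Arg1 was called at no time, with -1.23 (adjusted p = 0.103) at 24 h.

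Bhmt, which remethylates homocysteine, had the largest fall of the 38 at 24 h, -3.45 ± 0.66 (log2 fold change ± SE, edgeR adjusted p = 0.000151). Otc, of the urea cycle, fell at 12, 24, 36 and 48 h, with -2.38 (adjusted p = 0.0224) at 48 h. Hpd (tyrosine breakdown) fell by 2.95 (adjusted p = 0.000419) at 24 h, Tat (tyrosine aminotransferase) by 2.79 (adjusted p = 0.0125), Tdo2 (tryptophan dioxygenase) by 2.49 (adjusted p = 0.00529) and Mat1a (S-adenosylmethionine synthesis) by 2.62 (adjusted p = 0.00326). Tdo2 was also lower at 48 h, with -2.49 (adjusted p = 0.0287). Pck1, of glucose synthesis, stood at -1.50 (adjusted p = 0.109) at 24 h.

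Genes of other hepatocyte lists were counted at the same times. Of 38 further hepatocyte genes, 8 fell at 6 h, 13 at 12 h, 29 at 24 h, 19 at 36 h and 4 at 48 h, and none was called later. Of 15 genes of pericentral hepatocytes, 9 fell at 6 h, 10 at 12 h, 10 at 24 h, 9 at 36 h and 0 at 48 h. Of 15 periportal genes, 0, 2, 11, 5 and 2 fell at these times. Beside them 5.42, 8.09, 10.9, 10.5 and 1.21% of all tested genes fell. Whether the lists differ in time was not tested. Of 21 acute phase genes none fell at 24 h and 4 rose, where 16% of all tested genes rose, and at 72 h 7 rose, where 1.51% did. At 72 h the 21 genes summed to 2236, 11377, 502 and 1128 CPM in replicates 1 to 4, against 764 to 1668 CPM in PBS. Replicates 1 and 2 thus lay above PBS, replicate 3 below it and replicate 4 within it. The count of 7 was not taken without replicate 2. Some genes stand on more than 1 of these lists or among the 38.

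At 72 h the 38 genes divided by library and not by gene. Their sum was 9981, 34505, 2238 and 2262 CPM for replicates 1 to 4. Replicates 1 and 2 (set 1) lay above all PBS libraries, and replicates 3 and 4 (set 2) below them. The median log2 fold change of the 38 was 1.26 with all 4 libraries, with 0 called (1.51% of genes rose, and 25 of the 38 had an unadjusted p below 0.05), while DESeq2 called 8 rises (3.29% of genes). Without replicate 3 11 rose (2.23% of genes), and without replicate 4 14 rose (2.43%). In set 1 alone the median was 1.74 with 18 rises (3.76% of genes), and in set 2 alone -0.89 with 0 calls (0.467% of genes rose), so the direction differed between sets, whose PBS groups also differ. Without replicate 2 the median was -0.052. In replicates 1 and 2 the 14 stellate cell genes summed to 658 and 1448 CPM against 228 and 259 in replicates 3 and 4, and 8 cholangiocyte genes to 45.4 and 52.8 against 4.17 and 5.05 CPM, with Cftr at 0 reads in all 4. The cholangiocyte genes also summed to 21.7 to 47.8 CPM in LAM-like KCs at 48 h, with Krt19 and Cftr at 0 reads there. Of the stellate cell and cholangiocyte lists 4 of 14 and 1 of 3 tested genes rose at 72 h, and the part of these lists in the result was not tested.

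The make-up of the reads of the 38 genes changed as well as their amount. The 5 clotting genes held 13.7 ± 1.23% (SD, n = 4) of the 38-gene sum in PBS and 28.8 ± 4.12% (SD, n = 4) at 24 h, and Hp, Hpx and Itih4 together 7.39 ± 2.63% (SD, n = 4) and 15.4 ± 2.3% (SD, n = 4). The 3 cytochromes held 11 ± 2.73% (SD, n = 4) in PBS, 2.54 ± 1.46% (SD, n = 4) at 24 h and 11 ± 4.0% (SD, n = 4) at 168 h. The libraries of 24 h did not overlap those of PBS for any of these classes. The 10 enzymes went from 9.65 ± 1.33% (SD, n = 4) in PBS to 4.16 ± 0.875% (SD, n = 4) at 24 h, and the apolipoproteins with Fabp1 from 14.5 ± 1.57% (SD, n = 4) to 9.36 ± 1.2% (SD, n = 4). The protease inhibitors held 6.95 ± 0.71% (SD, n = 4) and 5.84 ± 0.657% (SD, n = 4).

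Relative to Alb, Fga stood at 19 ± 3.39 (SD, n = 4) CPM per 100 CPM of Alb in PBS, 56.2 ± 16.1 (SD, n = 4) at 24 h and 25.6 ± 5.24 (SD, n = 4) at 36 h. Hp stood at 11.5 ± 5.46 (SD, n = 4), 35 ± 9.34 (SD, n = 4) and 26.5 ± 5.51 (SD, n = 4). The group means of both ratios were highest at 24 h. Cyp2e1 stood at 12.8 ± 4.44 (SD, n = 4) per 100 of Alb in PBS, 2.92 ± 1.15 (SD, n = 4) at 12 h, 2.23 ± 1.06 (SD, n = 4) at 36 h and 15.1 ± 6.35 (SD, n = 4) at 168 h. At 72 h, where amounts differed most between libraries, Cyp2e1 stood at 6.08, 7.44, 5.0 and 6.22, so its ratio to Alb varied far less than its level. Ratios of Hp at 72 h were wider, at 9.29, 15, 5.33 and 30.1.

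**Figure D3:**
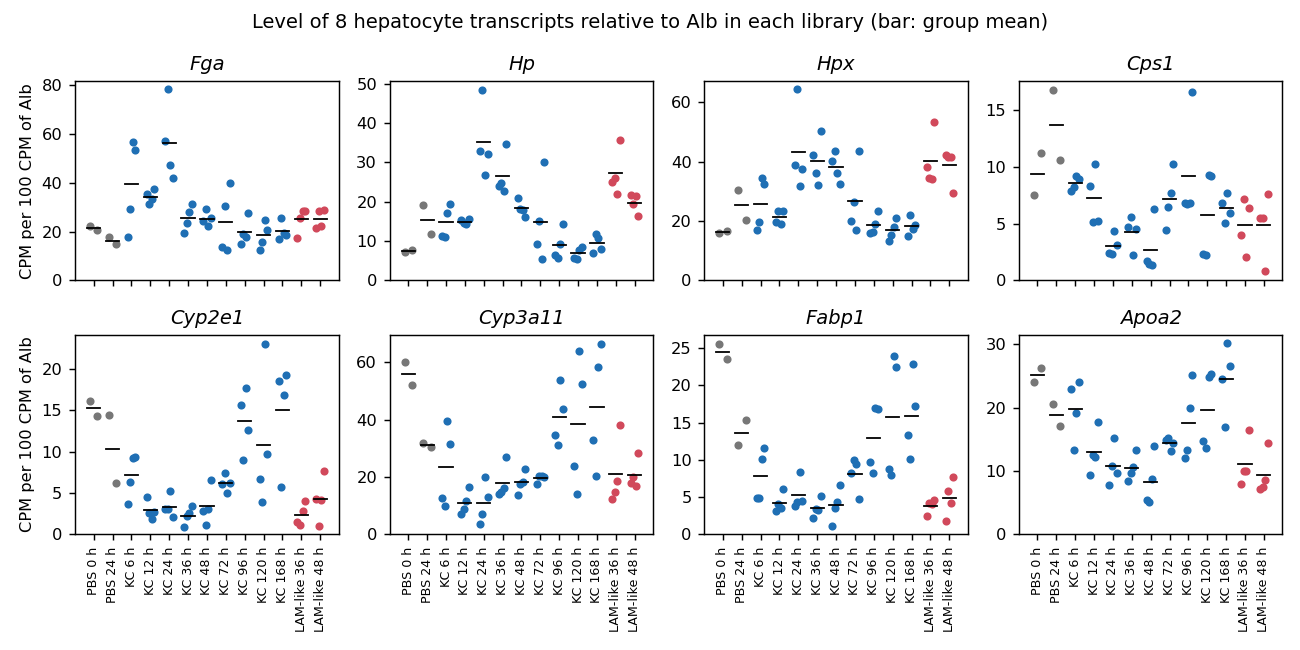
Level of 8 genes relative to Alb (CPM per 100 CPM of Alb, linear axes) in each library, by group; bars are group means. Means of Fga, Hp and Hpx are highest at 24 h, while Cyp2e1, Cyp3a11 and Fabp1 are low from 12 to 48 h; LAM-like KCs (red) sit near KCs of the same time.

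The same question was put as a test with the log2 sum of the 38 further hepatocyte genes as a covariate, so that a value is a difference at an equal level of those genes. At 24 h 9 of the 38 were then higher and 8 lower (10% and 6.18% of all genes). The higher ones were Fga at 1.90, Fgb at 1.90, Fgg at 1.61, Hp at 1.82, Hpx at 1.19, Itih4 at 1.44, Ahsg at 0.94, Apoa1 at 0.77 and Vtn at 0.60 on the log2 scale. The lower ones were Bhmt at -1.63, Cyp3a11 at -1.58, Fabp1 at -1.35, Ass1 at -1.25, Hpd at -1.14, Otc at -1.09, Apoa2 at -0.60 and Trf at -0.59. Hp had an adjusted p of 0.0002 and Fabp1 of 0.00539 by edgeR. At 6 h 5 were higher and 2 lower (8.06% and 4.53% of all genes), at 12 h 8 and 6 (9.99% and 6.32%), at 36 h 12 and 5 (12.9% and 8.32%), at 48 h 11 and 4 (2.11% and 1.12%) and at 72 h 12 and 0 (1.79% and 0.802%). At 96, 120 and 168 h none was called, with 13, 9 and 1 at an unadjusted p below 0.05. The covariate itself fell with APAP, so these values are relative to that list only.

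Levels of the hepatocyte genes were lower in LAM-like KCs than in KCs of the same time. The 38 genes made up 0.0892, 0.175, 0.0764 and 0.105% of reads at 36 h and 0.15, 0.11, 0.0668 and 0.208% at 48 h, against the shares of KCs given above. At 36 h the groups did not overlap, and at 48 h they did. As a percentage of the KC library of the same replicate number, the scaled sum was 28, 56.7, 42.1 and 54.8% at 36 h and 32.4, 36.4, 47.3 and 56% at 48 h. Every pair was thus below 100%. All 38 genes were lower at both times, with a median log2 fold change of -1.14 at 36 h and -1.11 at 48 h, against -0.0073 and -0.010 over all tested genes.

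By the fit over all groups 1 of the 38 fell at 36 h (1.11% of genes fell) and 1 at 48 h (1.37%), Trf both times. Trf stood at 36.8, 47.7, 32 and 36.1 CPM in LAM-like KCs at 36 h and 49.9, 56.1, 56.5 and 97.5 at 48 h, with -1.09 ± 0.21 (log2 fold change ± SE, edgeR adjusted p = 0.00193) at 36 h and -0.83 ± 0.21 (log2 fold change ± SE, edgeR adjusted p = 0.0248) at 48 h. At 36 h no LAM-like library reached the lowest KC library, and at 48 h replicate 4 did. Same-numbered KC and LAM-like libraries deviated together, so the number was also used as a block. Within set 1 alone 1 fell at each time (0.752 and 1.03% of genes), and within set 2 alone 0 (1.31 and 1.16%). Without replicate 2 of the KCs at 72 h 1 fell at 36 h (1.36%) and 6 at 48 h (1.89%). The call at 48 h was lost without replicate 1 or 4 of the KCs or replicate 1, 2 or 3 of the LAM-like KCs, with 0.492 to 1.89% of all genes falling when 1 library was left out. A fit on the compared groups with that block was not among the planned settings. In it 35 of the 38 fell at 36 h (8.37% of genes) and 34 at 48 h (6.71%). The block in the fit over all groups, which was planned, left the count at 1 and 1. On the compared groups without the block 20 fell at 36 h (3.17%) and 0 at 48 h (1.21%). In the blocked fit Alb changed by -1.23 (edgeR adjusted p = 0.000114) at 36 h and -1.40 (adjusted p = 0.000393) at 48 h. A gene was lower in all 4 pairs for 36 of the 38 at 36 h (18.4% of genes whose mean reached 1 CPM) and 35 at 48 h (16.9%), the exceptions being Arg1 and Otc at 36 h and Cps1, Tat and Tdo2 at 48 h.

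In LAM-like KCs Alb stood at 187, 318, 141 and 148 CPM at 36 h and 267, 198, 117 and 381 at 48 h. Apoa2 stood at 14.9, 31.9, 14.3 and 24.5 CPM at 36 h and 19.2, 14.9, 9.95 and 55.1 at 48 h. At 36 h no LAM-like library reached KCs for these genes but replicate 2 of Alb, which lay above KC replicate 4. Hp stood at 46.8, 83.1, 31.2 and 53.1 CPM at 36 h and 58.1, 38.4, 24.9 and 62.6 at 48 h. Cyp2e1, which in KCs was low at these times as well, stood at 2.71, 3.77, 3.97 and 5.98 CPM at 36 h and 11.5, 1.97, 4.9 and 29.2 at 48 h. Of the urea cycle genes, Cps1 stood at 7.52, 22.7, 2.88 and 9.46 CPM at 36 h and 14.6, 11, 0.99 and 29 at 48 h. For Ass1 the values were 3.25, 5.56, 1.69 and 6.64 CPM at 36 h and 4.63, 4.47, 2.22 and 11.9 at 48 h, and for Arg1 8.05, 19.1, 12.1 and 45.5 CPM at 36 h and 8.9, 6.39, 5.61 and 18.8 at 48 h. In all 3 the populations overlapped at both times. The change of the difference from 36 to 48 h was called for 0 of the 38 (0.00585% of genes in either direction), with 0 at an unadjusted p below 0.05 and 0 by DESeq2.

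**Figure D4:**
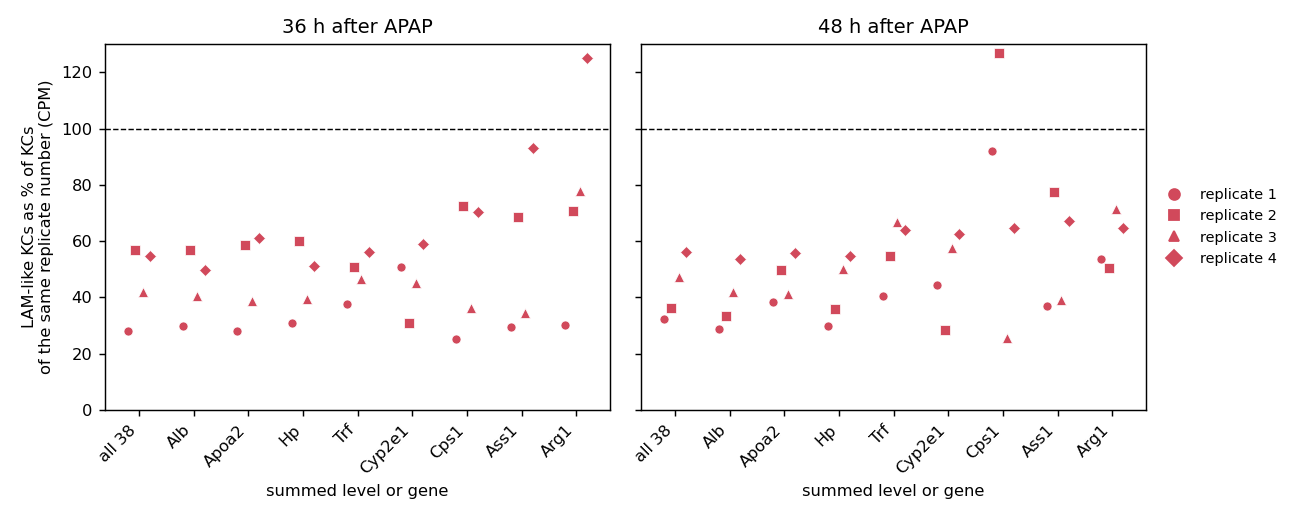
Level in LAM-like KCs as a percentage of KCs with the same replicate number (CPM, linear axis; dashed line, equal levels) for the sum of the 38 genes and 8 of them, at 36 and 48 h. The 4 points of the sum lie below 100% at both times, and Arg1 at 36 h and Cps1 at 48 h each have a pair above it.

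The make-up of that smaller amount was close to that of KCs at 36 h in the classes given first, while at 48 h the clotting share was lower. Hp, Hpx and Itih4 held 15.1 ± 1.49% (SD, n = 4) of the sum in LAM-like KCs and 15.5 ± 1.84% (SD, n = 4) in KCs at 36 h, the clotting genes 16.9 ± 1.71% (SD, n = 4) and 18.2 ± 1.67% (SD, n = 4), and the cytochromes 4.41 ± 1.44% (SD, n = 4) and 4.07 ± 0.794% (SD, n = 4). These differences were smaller than the SD of either group. The 10 enzymes held 7.92 ± 2.73% (SD, n = 4) and 6.69 ± 1.2% (SD, n = 4) at 36 h. At 48 h the clotting genes held 17.8 ± 0.732% (SD, n = 4) in LAM-like KCs and 19.7 ± 1.38% (SD, n = 4) in KCs, without overlap. Hp, Hpx and Itih4 held 13.8 and 14.5% and the cytochromes 5.15 and 4.81% at 48 h, and both overlapped. At an equal level of the other hepatocyte genes, 1 of the 38 differed at 36 h (1.29% of genes were lower) and 0 at 48 h (1.18%), where 3 had an unadjusted p below 0.05. The one at 36 h was Trf, with -0.71 (edgeR adjusted p = 0.00238). Markers of other cells are given beside this. The stellate cell genes summed to 104 to 145 CPM in LAM-like KCs and 149 to 165 in KCs at 36 h, and to 128 to 187 and 169 to 328 at 48 h, with 2 and 5 of 14 called lower (1.11% and 1.37% of all genes were). The KC genes summed to 26128 to 29245 and 42351 to 44017 CPM at 36 h, with 7 of 16 called lower. Erythroid genes summed to 0.528 to 4.88 and 2.74 to 9.61 CPM at 36 h with 0 of 6 tested called, Slc4a1 being at 0 reads in both. Endothelial genes summed to 209 to 471 and 309 to 404 CPM at 36 h, with 2 of 15 called lower. Of these 15 genes 11 stood higher in LAM-like KCs, and the median log2 fold change of the 15 was 0.56. The part of these in the result was not tested.

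Per kilobase of exon, Alb led in PBS at 398 ± 117 (SD, n = 4) CPM per kb, with Apoa2 at 374 ± 92.5 and Fabp1 at 299 ± 41.6. Alb and Apoa2 lay within their spread. In KCs at 24 h Alb stood at 131 ± 28.6 and Hp, now the fourth, at 63.9 ± 1.89 CPM per kb. Otc was the lowest in both groups.

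Across the 48 libraries the level of each gene was compared with the summed level of the other 37 by Spearman's rank correlation on log2(CPM + 0.5). These libraries share groups and depth, so the values are a description. The correlation was highest for Gc at 0.984, Serpinc1 at 0.978 and Apoh at 0.975, and lowest for Hp at 0.482, Arg1 at 0.622 and Hpx at 0.735. Within groups, with group means removed, Pearson's r was 0.907 for Hp and had a median of 0.93 over the 38, or 0.896 without replicate 2 at 72 h. Hp, the least alike of the 38 over all libraries, was thus close to the others within groups. Of 12273 other genes whose mean reached 1 CPM, the nearest to the sum were Serpina1d at 0.979, Serpinf1 at 0.975, Apof at 0.972, Fetub at 0.967 and 1300017J02Rik at 0.967. The Serpina1d transcript is 93.8 to 96.5% identical to those of the Serpina1 genes among the 38, and its gene overlaps Serpina1b on the same strand. Counting could therefore split reads between them.

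Between the PBS groups no gene of the 38 was called. The 24 h sum was 1.42 times the 0 h sum, 34 of the 38 were higher at 24 h, and 0 were called (0.0527% of genes in either direction), with 1 at an unadjusted p below 0.05 and 0 by DESeq2.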

How the data were processed

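Counts per gene were read from 48 RNA sequencing libraries. The deposited values are raw counts of reads per gene, 1 table for each library, and per the submitters' processing notes the tools were featureCounts 2.0.0, HISAT2 2.2.0, SAMtools 1.10 and FastQC 0.11.9, on the mm10 genome. The strand setting and annotation release are not given in the sources used here, so reads of overlapping genes (5 of the 38 overlap a gene on the same strand and 7 on the other) cannot be assigned with certainty. No 2 libraries held identical values.

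From these counts, filterByExpr of edgeR 4.0.16 (R 4.3.3) left 17080 genes, all 38 among them. Library sizes were scaled by TMM. A quasi-likelihood fit with robust estimation had 1 coefficient for each of the 13 groups over all 48 libraries, tests were 2-sided, and p-values were adjusted over all tested genes by the Benjamini-Hochberg method with a threshold of 0.05. The control for each time after APAP was the average of the PBS 0 h and PBS 24 h coefficients, each weighted alike. LAM-like KCs were set against the KCs sorted at that time. The procedure was tested on simulated counts with known changes. CPM use scaled library sizes, and exon lengths and positions are those of GENCODE M21.

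Same-numbered KC and LAM-like libraries had residual correlations of 0.126 to 0.191 at 36 h and 0.189 to 0.35 at 48 h, and the number was used as a block for this reason. Other-numbered libraries of the same set reached 0.126 at 36 h and 0.163 at 48 h. Replicates 1 and 2 of these groups are of set 1 and replicates 3 and 4 of set 2, so the block also holds the difference between sets. The labels do not state a pairing. The 38 genes, all other lists, the alternatives and the rule for named genes were chosen with earlier results of these data known. By that rule all 38 genes are accounted for, Alb, Apoa2, Hp, Trf, Cyp2e1, Cps1, Ass1 and Arg1 are given by library, called genes are named by the 3 largest rises and falls of each comparison, and the 3 genes most and least correlated with the sum and the 5 nearest other genes are named. Further called genes were named after their values were seen. Promoters are RefSeq's on GRCm38.p6. Alternatives included DESeq2 1.42.0, RLE scaling, other filters, controls and blocks, and each library left out. Figures were drawn with matplotlib 3.10.9, and Python was 3.11.15.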

Additional observations from a re-analysis of the deposited data

Results flagged for a closer look

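The summed level of the 38 genes and the level of 8 of them were examined in each of the 11 groups of 4 libraries, 99 groups of values in all. A library was singled out when its gap to the nearest other library relative to the group's range exceeded Dixon's critical value for 4 libraries, which chance gives in about 1 in 20 groups, and 7 were found. The summed level was 9163 CPM in replicate 1 of KCs at 96 h, where the others lay between 4369 and 4839 CPM. It was 5265 CPM in replicate 1 of KCs at 168 h, where the others lay between 2912 and 3189 CPM. Apoa2 was at 128.9 CPM in replicate 3 of KCs at 12 h against 51.6 to 57.3 CPM in the others. Trf was at 97.5 CPM in replicate 4 of LAM-like KCs at 48 h against 49.9 to 56.5 CPM. Replicate 2 of KCs at 72 h had Cps1 at 454.8 CPM against 39.2 to 107 CPM and Arg1 at 292.3 CPM against 18.9 to 61.5 CPM. Ass1 was at 13.1 CPM in replicate 3 of KCs at 120 h against 22.5 to 24.4 CPM.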

How the results depend on the processing

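Counts of called genes among the 38 depended on the processing more than their direction did. A count given here without the share of all genes called in that setting describes this dependence only. It is no result about the 38. With DESeq2 the counts were 6 at 6 h, 8 at 48 h, 8 (all rises) at 72 h and 2 for LAM-like KCs at 48 h. Without a filter 2 were called at 48 h. With the set as a covariate 13 were called at 12 h. In set 1 alone 12 were called at 6 h, 7 at 48 h and 18 at 72 h. In set 2 alone 0 were called at 6 and 48 h, 8 at 24 h and 0 for LAM-like KCs at 36 and 48 h. With PBS 0 h alone as the control 5 were called at 12 h and 0 at 48 h, and with PBS 24 h alone 1 at 6 h. On the compared groups 21 were called at 6 h, 15 at 12 h, 30 at 36 h, 20 for LAM-like KCs at 36 h and 0 at 48 h. With the other hepatocyte genes as a covariate, which changes the quantity tested, 7 were called at 6 h, 14 at 12 h, 15 at 48 h, 12 at 72 h and 0 for LAM-like KCs at 48 h. In that fit 7 falls at 24 h took the other sign and were not called, at 0.31 for Alb, 0.38 for Apoh, 0.34 for Serpina1a, 0.18 for Serpina1b, 0.00074 for Serpinc1, 0.28 for Gc and 0.26 for F2. The log2 ratio of the summed level at 6 h was -1.06 on the share of all counted reads and -0.87 on scaled CPM. Without Arg1, Ass1, Hp and Trf the ratio on scaled CPM was -0.91 at 6 h. At 24 h it was -1.49 without these genes and -1.44 with all 38.

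The replicate number as a block gave 5 calls (all rises) at 72 h, and in the unplanned fit on the compared groups 35 and 34 for LAM-like KCs at 36 and 48 h. In the fit over all groups the block gave 3, 7, 20, 10 and 3 calls at 6, 12, 24, 36 and 48 h, 0 at 96, 120 and 168 h, and 1 and 1 for LAM-like KCs. For same-numbered KC and PBS libraries the residual correlations lay between -0.0916 and 0.0865. PBS 0 h replicates 1 and 2 of the labels are numbered 3 and 4 in the file headers and are of set 2. The KC libraries they were matched with are of set 1. With this and 2 libraries in each PBS group, the values cannot decide whether KCs and PBS were paired. The block in the fit over all groups used the label numbers.

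With 1 library left out at a time, counts ran from 1 to 7 at 6 h, 4 to 13 at 12 h, 18 to 31 at 24 h, 6 to 17 at 36 h, 1 to 7 at 48 h and 0 to 14 at 72 h, and from 0 to 6 for LAM-like KCs at 48 h, with 1 throughout at 36 h. Of all genes 6.9 to 12.9% fell at 24 h and 0.266 to 2.43% rose at 72 h in these fits. The 14 at 72 h came without replicate 4 of that time, the 4 at 12 h and 6 at 36 h without replicate 1 of PBS 24 h. Of 54 called changes, 101 of 486 values with a library left out lost the call, and none changed sign. The cause of these differences was not tested.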
